A study of Homo sapiens with 6 samples.

Results

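The genes described here are the enzymes that make and break down proline: ALDH18A1, PYCR1, OAT, PRODH and ALDH4A1. They were chosen by symbol as 5 of the 57820 gene rows, by a rule that used no measured value. Earlier results of these data were known when the members were chosen. RNA was measured in U266, an established human multiple myeloma cell line labelled as myeloma and plasmacytoma, grown in RPMI-1640 with serum. The groups were 3 control samples and 3 samples in which U266 had received MYC by lentivirus, from an EF1A-C-MYC vector, EF1A being a broadly active promoter. The labels name the control group as control and the other as MYC overexpressing. They do not say whether the controls carried a vector, nor whether a line is 1 clone. Nothing in them tells whether replicates are separate cultures, so p-values measure the spread between these samples, which may be technical.

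Proline is made from glutamate or from ornithine. Both routes meet at pyrroline-5-carboxylate (P5C), which is in balance with glutamate semialdehyde. ALDH18A1 encodes the mitochondrial P5C synthase, which turns glutamate into P5C with ATP and NADPH, and OAT encodes ornithine aminotransferase, which links ornithine to the same intermediate. PYCR1 encodes a mitochondrial P5C reductase, which makes proline from P5C. Breakdown runs the other way: PRODH encodes proline dehydrogenase, which passes electrons from proline to the respiratory chain, and ALDH4A1 encodes the dehydrogenase that oxidises P5C to glutamate. In several cancer cell types MYC is known as an activator of proline synthesis genes, and ATF4, the factor of the amino acid response, is another known activator.

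MYC binds the E-box CACGTG, which reads the same on both strands. The promoters of ALDH18A1, OAT and ALDH4A1, from a table of RefSeq promoters, are shown because they let this motif be read beside the direction of each gene. Those of PYCR1 and PRODH were not analysed here. Each is the 250 bases before the annotated start on the minus strand of GRCh38.p14, and capitals mark the E-box. The window of ALDH18A1 is chr10:95656712-95656961, that of OAT chr10:124418924-124419173 and that of the upstream start of ALDH4A1 chr1:18902556-18902805.
ALDH18A1: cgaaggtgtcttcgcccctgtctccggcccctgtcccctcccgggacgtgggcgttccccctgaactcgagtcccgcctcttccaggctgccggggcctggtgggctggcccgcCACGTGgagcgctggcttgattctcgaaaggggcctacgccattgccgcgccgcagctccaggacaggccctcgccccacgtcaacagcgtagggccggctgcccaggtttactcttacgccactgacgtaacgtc
OAT: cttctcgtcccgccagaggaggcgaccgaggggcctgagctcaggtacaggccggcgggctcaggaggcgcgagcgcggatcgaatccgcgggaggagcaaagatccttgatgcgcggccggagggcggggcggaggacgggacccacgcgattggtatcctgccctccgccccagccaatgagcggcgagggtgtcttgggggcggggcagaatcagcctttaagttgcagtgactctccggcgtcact
ALDH4A1: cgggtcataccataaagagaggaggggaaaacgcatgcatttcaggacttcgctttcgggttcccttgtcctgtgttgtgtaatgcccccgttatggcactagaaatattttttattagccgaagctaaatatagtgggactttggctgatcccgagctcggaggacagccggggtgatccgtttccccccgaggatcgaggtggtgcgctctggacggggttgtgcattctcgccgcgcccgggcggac
The ALDH18A1 window held 1 E-box, whose first base lies 136 bases before the start. Those letters were not in the windows of OAT, of ALDH4A1 or of the second annotated start of ALDH4A1. Of 35116 RefSeq promoter windows of this length, 6.34% held the motif. A match is a description of the sequence and no evidence of binding. The deposited files used another build, GRCh37, and no coordinate was carried between the builds.

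Depth, as the sum of expected counts, lay between 27139978 in MYC replicate 1 and 158667309 in MYC replicate 2, which is a 5.85-fold range. Levels are given as CPM, counts relative to library depth after TMM scaling, a composition correction. TPM, which also scales for transcript length, is used wherever genes are compared with each other. MYC itself checked the labels: it went from 4.20 ± 0.305 to 102.6 ± 9.43 CPM (SD, n = 3 each; 24.3-fold, edgeR adjusted p = 9.71e-08), without a distinction between vector and endogenous reads. The plasma cell markers were all 8 above the expression filter, with a summed level of 3701 to 4220 TPM in control and 3428 to 3486 TPM under MYC. Of these, 5 were called lower (SDC1, TNFRSF17, IRF4, PRDM1 and XBP1) and 1, JCHAIN, was called higher. Over all genes tested, 32.1% were called lower and 28.8% higher. JCHAIN alone had a mean of 1825 TPM in control and 2043 TPM under MYC. With the GC offset described below, 6 plasma cell markers were called lower and 1, MZB1, higher, against 28.9% and 29.6% of all genes tested. SDC1 was then 1.18-fold lower in place of 2.25-fold, MZB1 was 2.05-fold higher, and JCHAIN was not called. The summed T and NK cell markers (7 of 8 above the filter) ranged over 9.34 to 11.9 TPM in control and 15.2 to 16.3 TPM under MYC. CD3E held the most, with means of 5.46 and 8.99 TPM. Of the 7, 5 were called higher and 2, CD2 and CD8A, lower. With the offset 5 were called higher and 1, CD2, lower. B cell markers (4 of 6) ranged over 10.2 to 10.6 and 4.58 to 5.44 TPM, and epithelial markers (2 of 5) over 4.02 to 4.78 and 7.59 to 8.69 TPM, in the same order. Myeloid markers (3 of 6) stood at 1.68 to 2.95 TPM over all libraries and stromal markers (4 of 6), with LUM at 0 in every library, at 3.83 to 4.74 TPM. The part of these marker differences in the results was not tested.

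Of the 5 members, 4 passed the expression filter and all 4 were called, 2 higher and 2 lower in MYC. A call is an adjusted p under 0.05 in edgeR's quasi-likelihood test, adjusted by Benjamini-Hochberg over all 17679 genes above the filter. The background was large: 60.8% of the genes tested were called, 28.8% higher and 32.1% lower, so a count of 4 called genes is not by itself a result about proline. The directions, 2 higher and 2 lower, were also split much as over all genes tested, where 47.3% of the calls were higher. ALDH18A1 and OAT, which feed P5C from glutamate and ornithine, rose. PYCR1, which draws P5C into proline, and ALDH4A1, which draws it into glutamate, fell. The 2 that fell have GC-rich transcripts, and genes tested at 60 to 65% GC had a median log2 fold change of -1.03. PRODH, which also makes P5C, was close to the detection limit.

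ALDH18A1 (ENSG00000059573.4), the entry enzyme from glutamate, rose. Its level was 74.3, 73.8 and 74.4 CPM in control, against 132.4, 128.1 and 122.4 CPM under MYC. The controls were nearly level, and every MYC library lay far above them. The mean went from 74.2 ± 0.303 to 127.7 ± 5.01 CPM (SD, n = 3 each), on 3501 to 19934 expected counts per library. This is a 1.72-fold rise (log2 0.78 ± 0.05 SE; edgeR, adjusted p = 1.01e-05), and 8.05% of the genes tested rose at least as far. In deposited TPM the rise was from 33.2 ± 0.716 to 54.02 ± 0.49.

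OAT (ENSG00000065154.7), the ornithine branch, also rose but by less. It stood at 48.1, 40.6 and 43.3 CPM in control, against 60.6, 62.8 and 65.1 CPM under MYC. The groups did not overlap, and all of MYC lay above all of control. This is a 1.43-fold rise (log2 0.52 ± 0.07 SE; edgeR, adjusted p = 0.000401), with 14.9% of the genes tested rising at least as far. RefSeq lists a pseudogene of OAT, and reads that the copies share could be split between them.

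PYCR1 (ENSG00000183010.12), the reductase that completes proline synthesis, fell the furthest of the 4. Control libraries held 230.1, 241.1 and 238.6 CPM, against 98.6, 86.6 and 57.2 CPM under MYC. Control values were tight, while MYC values were spread more widely, with replicate 3 the lowest, and the groups lay far apart. The mean went from 236.6 ± 5.74 to 80.8 ± 21.3 CPM (SD, n = 3 each), on 2607 to 31550 expected counts. The level was 2.93-fold lower (log2 -1.55 ± 0.17 SE; edgeR, adjusted p = 9.25e-05), and 5.29% of the genes tested fell at least as far. Without MYC replicate 3 it was 2.56-fold lower.

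ALDH4A1 (ENSG00000159423.12), which oxidises P5C to glutamate, fell as well, from a lower level. Its values were 14.9, 17.8 and 16.4 CPM in control, against 9.27, 8.39 and 6.09 CPM under MYC, on 245 to 2169 expected counts. The groups did not overlap, and MYC replicate 3 was again the lowest library. The level was 2.08-fold lower (log2 -1.06 ± 0.15 SE; edgeR, adjusted p = 0.000318), and 11.5% of the genes tested fell at least as far. By CPM alone, the groups of the 4 members above the filter were apart, 2 higher and 2 lower. The same held for 67.1% of the genes tested, 32.1% higher and 35.1% lower. PRODH, under the filter and so outside that share, also had groups apart, with MYC higher. In deposited TPM the groups of 4 members were apart, 2 in each direction, against 59.8% of the genes tested, 25.8% higher and 34% lower.

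PRODH (ENSG00000100033.12), the first enzyme of proline breakdown, was barely detected in either group. It had 2.06, 2 and 8.46 expected counts in control, against 8, 12.05 and 7 under MYC. That is 0.0360, 0.0259 and 0.0605 CPM against 0.303, 0.0771 and 0.129 CPM, and a count of 3 is worth 0.0189 to 0.111 CPM depending on the library. The CPM ranges did not overlap, but the deposited TPM ranges met at 0.04. Summed over a group, 13 counts in control and 27 in MYC gave a ratio per sequenced read of 2.29, with an exact 95% interval of 1.14 to 4.84 that covers counting error only. Without MYC replicate 1, the shallowest library and the highest value, the ratio was 1.82 (0.853 to 4.01). Without control replicate 2 it was 1.91 (0.917 to 4.26), and without control replicate 3 it was 3.76 (1.31 to 14.8). Without MYC replicate 2 it was 3.803 (1.69 to 8.68). The interval thus reached below equality without either of 2 single libraries. PRODH was under the expression filter. Without a filter, edgeR called it higher at 2.99-fold (adjusted p = 0.0422), where 34% of 32620 genes were called, 15.3% higher and 18.7% lower. Without control replicate 1 it passed the filter and was not called, at 2.61-fold (adjusted p = 0.144, edgeR). RefSeq lists a pseudogene of PRODH, and DGCR6 overlaps its exons on the other strand, so even these few reads cannot be assigned with certainty. DGCR6 itself was at 0.619 CPM in control and at 0.269 CPM under MYC.

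**Figure D1:**
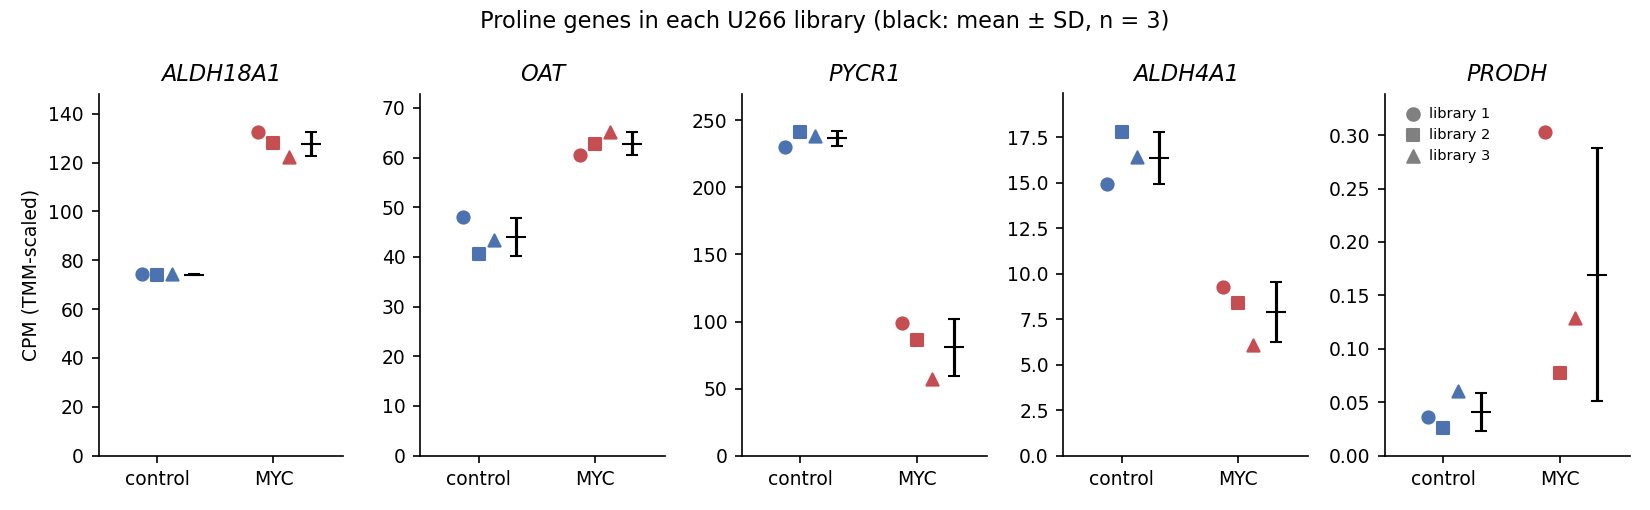
CPM (linear axis from 0, a separate range per gene) of the proline genes in each library, with marker shape for the replicate number and black bars for mean ± SD over 3 libraries. ALDH18A1 and OAT lie higher and PYCR1 and ALDH4A1 lower in every MYC library than in every control, and PRODH stays under 0.31 CPM.

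The members that fell have GC-rich transcripts, as does PRODH. Mean transcript GC content was 42.8% for OAT and 50.8% for ALDH18A1, against 60.6% for ALDH4A1, 62.2% for PRODH and 62.9% for PYCR1. Across all genes tested, the median log2 fold change was 0.23 at 40 to 45% GC (3668 genes), -0.05 at 50 to 55% (3155 genes) and -1.03 at 60 to 65% (1901 genes). Genes as GC-rich as PYCR1 and ALDH4A1 were thus typically lower in MYC by about as much as ALDH4A1 was. The trend was present in each MYC library and was deepest in replicate 3, the library in which PYCR1 and ALDH4A1 were lowest. There, the median log2 difference of genes at 60 to 65% GC from the control mean was -1.26, compared with -0.97 in replicate 2 and -0.81 in replicate 1.

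With each library's trend on GC content entered as an offset in the same edgeR model, all 4 members kept their direction and their call. The background was then 58.5% called, 29.6% higher and 28.9% lower. ALDH18A1 hardly moved, at 1.66-fold higher (log2 0.73 ± 0.03 SE, adjusted p = 4.03e-07, edgeR). OAT was 1.23-fold higher (0.30 ± 0.04, adjusted p = 0.000177, edgeR). PYCR1 was 1.36-fold lower in place of 2.93-fold (-0.44 ± 0.08, adjusted p = 0.000881, edgeR). ALDH4A1 was 1.18-fold lower in place of 2.08-fold (-0.24 ± 0.07, adjusted p = 0.0213, edgeR). With the offset, 9.48% of the genes tested rose at least as far as ALDH18A1 and 24.3% at least as far as OAT. In the other direction, 18.3% fell at least as far as PYCR1 and 30.02% at least as far as ALDH4A1, so the remaining fall of ALDH4A1 was of a size that many genes share. The GC trend and the group cannot be told apart in this design, since it was present in all 3 MYC libraries and in no control library to that depth.

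**Figure D2:**
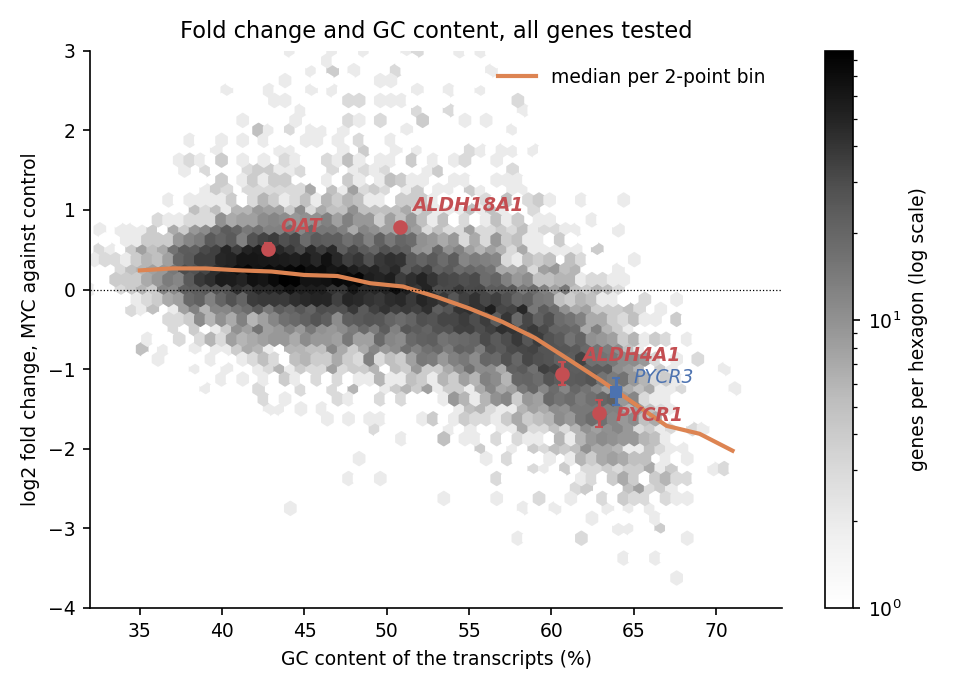
Log2 fold change of MYC against control over transcript GC content for all genes tested (grey hexagons, log colour scale; genes beyond the axis limits are not drawn), with the median per bin as an orange line, the proline members as red points and PYCR3 as a blue square (± SE). OAT and ALDH18A1 lie above the line, and PYCR1 and ALDH4A1 lie under it in the part where the line falls.

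PYCR3, which encodes a cytosolic P5C reductase, was low. Its mean was 1.93 TPM against 0.787 TPM under MYC, and its fall of 2.43-fold (edgeR, adjusted p = 0.000296) ended with the GC offset (log2 -0.0028, adjusted p = 0.986, edgeR).

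Per length, PYCR1 was the most abundant member in both groups. In the controls it stood at 253.3 ± 15.4 TPM, followed by ALDH18A1 at 33.2 and OAT at 31.8 TPM, whose ranges overlapped. ALDH4A1 followed at 7.44 ± 0.52 TPM and PRODH at 0.0267 TPM. In the MYC libraries the order held but the distance closed: PYCR1 stood at 76.4 ± 15.9 TPM, ALDH18A1 at 54.02 and OAT at 44.6 ± 3.90 TPM, and these ranges did not overlap. ALDH4A1 was at 3.49 ± 0.683 TPM and PRODH at 0.117 TPM.

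Ratios within a library do not depend on how libraries are scaled to each other. With 3 libraries against 3, the smallest two-sided exact permutation p is 0.10, so they are described without a test. The ratio of ALDH18A1 to PYCR1 in deposited TPM was 0.131, 0.136 and 0.126 in control, against 0.603, 0.672 and 0.914 under MYC. The synthase transcript thus came much closer to the level of the reductase transcript in every MYC library, a 5.56-fold shift of the mean ratio. OAT to PYCR1 shifted 4.87-fold, from 0.125 ± 0.0119 to 0.61 ± 0.193. On the breakdown side, ALDH4A1 to ALDH18A1 went from 0.225 ± 0.0198 to 0.0645 ± 0.0124, 3.48-fold lower. ALDH18A1 and OAT moved more nearly together. The ratio of ALDH18A1 to OAT had a mean of 1.05 ± 0.103 against 1.22 ± 0.108 under MYC, and the groups overlapped. After the GC offset the shift of ALDH18A1 to PYCR1 was 2.27-fold, that of OAT to PYCR1 1.68-fold and that of ALDH4A1 to ALDH18A1 1.96-fold, with the directions kept and the groups apart. ALDH18A1 to OAT was 1.35-fold higher after the offset, with the groups then apart.

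**Figure D3:**
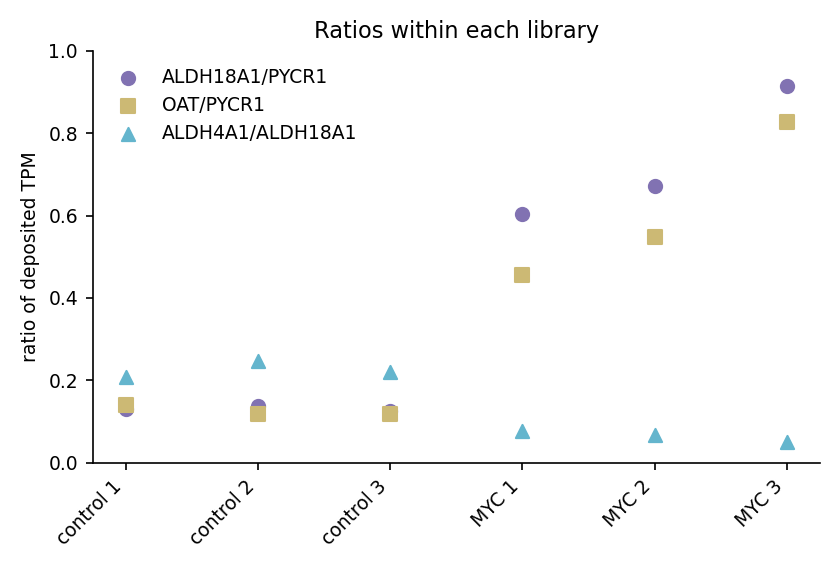
Ratios of deposited TPM between proline genes within each library (linear axis from 0), 1 marker shape per ratio. ALDH18A1/PYCR1 and OAT/PYCR1 stay under 0.15 in the controls and lie above 0.45 in the MYC libraries, while ALDH4A1/ALDH18A1 falls from above 0.20 to under 0.08.

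The estimated transcript make-up of PYCR1 also differed. The deposited length, which RSEM averages over a gene's transcripts by their abundance, was 1417, 1474 and 1382 bases in control, against 1548, 1568 and 1509 bases under MYC. The groups did not overlap, and the estimated average length of PYCR1 was greater in MYC. How far read assignment or the GC trend moves this estimate was not tested. Among the genes tested, 25.3% had groups apart in length, 11.6% longer in MYC and 13.7% shorter. In TPM, which takes length into account, PYCR1 was lower by 3.32-fold between the means, against 2.93-fold in the count model. With effective lengths as an offset in the count model it was 3.23-fold lower. For ALDH18A1, OAT and ALDH4A1 the lengths of the groups overlapped. The files list 15 transcripts of PYCR1, and an antisense gene, AC145207.4, overlaps its exons. The kit does not mark strand, so reads of the pair were not told apart. AC145207.4 carried 5.18%, 6.71% and 4.602% as many counts as PYCR1 in control, against 12.1%, 14.05% and 24.4% under MYC. It was itself at 13.03 CPM in control and at 12.7 CPM under MYC (log2 -0.03; edgeR, adjusted p = 0.864).

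Among other enzymes of proline and hydroxyproline, 14 were listed and 12 were above the filter. Of these, 6 rose and 5 fell, where 28.8% of all genes tested were called higher and 32.1% lower. The median log2 fold change was 0.19 against -0.02 over all genes tested. P4HA2, a subunit of the prolyl hydroxylase that modifies collagen, rose 1.63-fold, from 7.08 ± 0.328 to 11.5 ± 0.273 CPM (edgeR, adjusted p = 8.50e-05). With the GC offset its rise was 1.61-fold. XPNPEP1, a peptidase that acts before proline residues, rose 1.30-fold (1.25-fold with the offset). PRODH2, the hydroxyproline dehydrogenase related to PRODH, had no count in any library. With the GC offset 4 rose and 3 fell, against 29.6% and 28.9% of all genes tested. P3H1, named after its values were seen, was called lower without the offset (log2 -0.21) and higher with it (0.13), so no direction is given for it.

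The ornithine and arginine genes, some of which handle the substrate of OAT, went both ways. Of 14, 10 were above the filter, 6 rose and 4 fell, against 28.8% and 32.1% of all genes tested. The median log2 fold change was 0.47 against -0.02 over all genes tested. With the offset 6 rose and 1 fell, against 29.6% and 28.9% of all genes tested, with a median of 0.37. SLC7A2, a carrier of arginine and other cationic amino acids, had no count in any control, on a group depth at which 3 counts are 0.0114 CPM. Under MYC it reached 3.44, 3.68 and 2.96 CPM, with 824 counts over the group. Set against an assumed floor of 3 counts over the controls, this is 303.3-fold higher. The exact 95% interval of the ratio, which covers counting error only, starts at 246.1-fold. GATM, which releases ornithine from arginine when it makes the creatine precursor, rose 1.64-fold, from 190.3 ± 6.19 to 312.4 ± 3.74 CPM (edgeR, adjusted p = 1.40e-05). AGMAT, named as an agmatinase, rose 1.66-fold, and ODC1, which turns ornithine into putrescine, rose 1.38-fold. With the offset GATM was 1.45-fold, AGMAT 1.75-fold and ODC1 1.31-fold higher. SLC25A15, the mitochondrial ornithine carrier, named after its values were seen, rose 1.52-fold and 1.67-fold with the offset. The 4 that fell without the offset were NAGS, ASL, SLC7A1 and ASS1, also named after their values were seen, and of these SLC7A1 was called lower with it (1.43-fold).

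Of 11 carriers known to move proline, 5 were above the filter, 1 rose and 1 fell, against 28.8% and 32.1% of all genes tested. The median log2 fold change was 0.03 against -0.02 over all genes tested. SLC1A4, a neutral amino acid exchanger and an abundant member of the list, fell 1.75-fold, from 483.6 ± 13.0 to 277.1 ± 21.9 CPM (edgeR, adjusted p = 3.12e-05). With the offset its fall was 1.67-fold. SLC36A4 rose 1.29-fold (adjusted p = 0.015, edgeR), but this call ended with the offset (1.07-fold) and without control replicate 2 (log2 0.30, adjusted p = 0.0773, edgeR). It also ended on both TPM scales (adjusted p = 0.0902 and 0.0837, limma). SLC38A2, a sodium-coupled carrier, had a mean of 768.7 CPM in control and of 683.2 CPM under MYC and was not called (edgeR, adjusted p = 0.0614). With the GC offset it was called lower at 1.34-fold, and it was named after its values were seen.

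The enzymes that make or use glutamate and oxoglutarate beside these steps went both ways. All 11 were above the filter, 5 rose and 6 fell, against 28.8% and 32.1% of all genes tested. The median log2 fold change was -0.29 against -0.02 over all genes tested. GPT2, the mitochondrial alanine transaminase, fell 2.09-fold, from 275.2 ± 2.85 to 131.7 ± 9.84 CPM (edgeR, adjusted p = 5.92e-06). The aspartate transaminases parted: the cytosolic GOT1 fell from 223.9 to 149.6 CPM and the mitochondrial GOT2 rose 1.66-fold, to 207.7 CPM. GLUL, glutamine synthetase, rose 1.35-fold, a call that ended on the TPM scale. With the GC offset GPT2 was 1.74-fold and GOT1 1.55-fold lower, and GOT2 1.68-fold and GLUL 1.31-fold higher. With the offset 4 rose and 5 fell in this list, against 29.6% and 28.9% of all genes tested. BCAT2, named after its values were seen, turned from 1.47-fold lower to 1.21-fold higher.

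**Figure D4:**
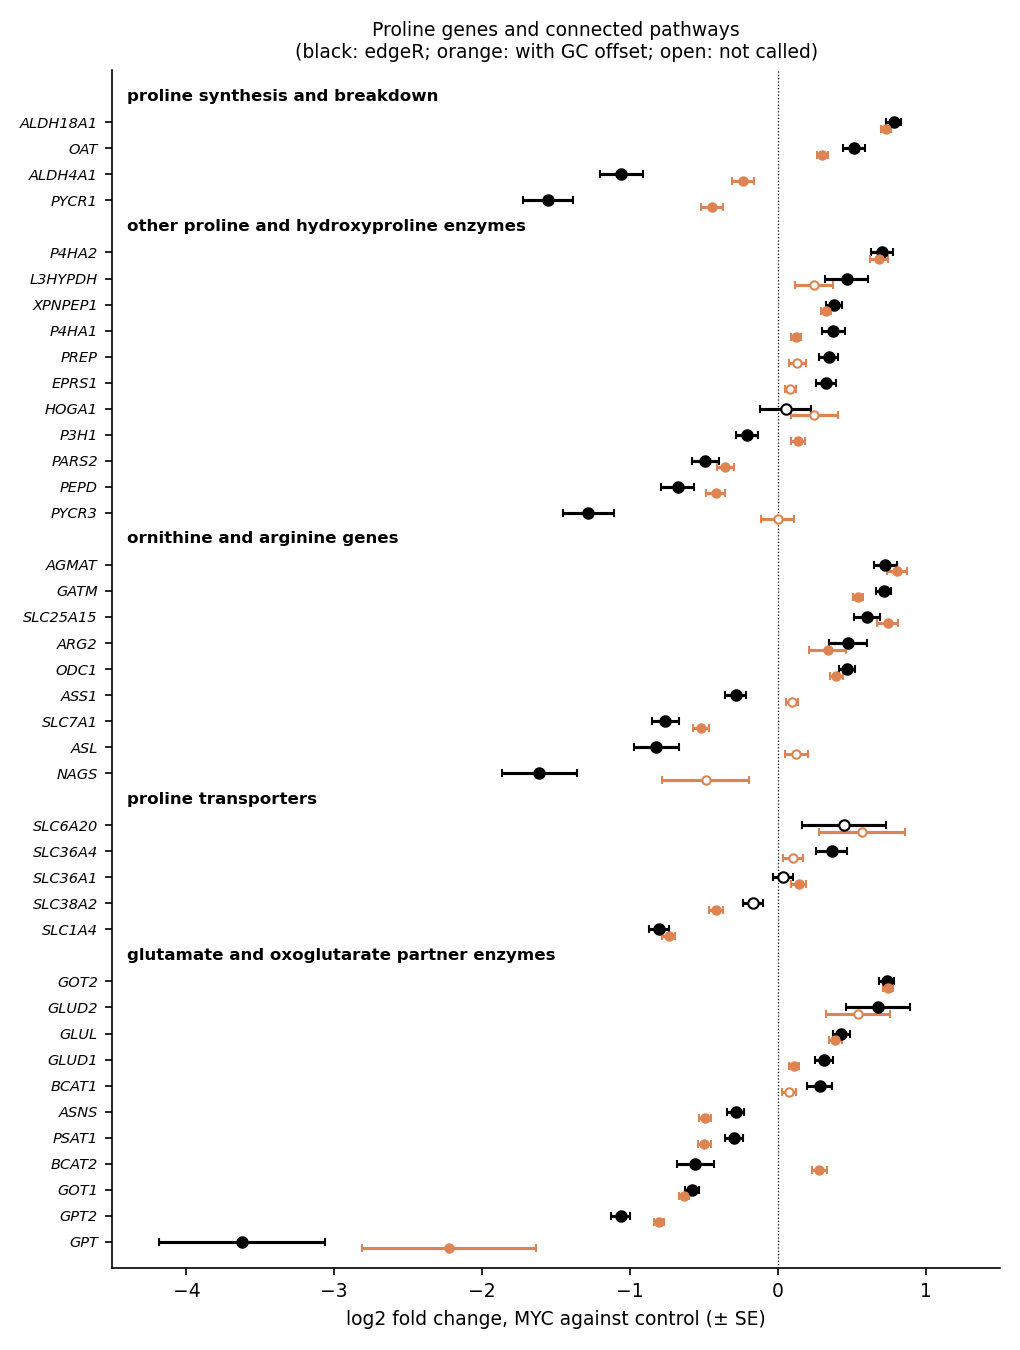
Log2 fold change of MYC against control (± SE) for the reported genes above the filter in the proline list and the connected lists, without the offset (black) and with the GC offset (orange); open points were not called, and SLC7A2, with no count in control, is left out. ALDH18A1, GOT2 and AGMAT hardly move between the fits, while PYCR1, ALDH4A1, ASL and BCAT2 move towards or past 0.

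By distance between patterns, the closest genes to each member were sought among 9782 protein-coding genes with a mean of at least 5 CPM. The measure was the root mean square difference of log2 CPM, centred per gene, over 6 libraries, and with 2 groups it mostly reads the size of the group difference. CCT5 (0.0295) and PASD1 (0.0325) were nearest to ALDH18A1, and HBS1L (0.0114) and NAA25 (0.0147) to OAT. ADGRE5 (0.0451) and PCNX3 (0.0452) were nearest to PYCR1, and PTPN23 (0.0187) and LMAN2 (0.022) to ALDH4A1. The neighbours of OAT had GC contents of 41.7% and 39.98%, and those of ALDH4A1 60.5% and 59.7%, close to their members. With the GC offset, where PYCR1 was at a log2 fold change of -0.44, PCNX3 was at -0.60 and ADGRE5 at -1.06. These differences between genes were not tested.

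**Figure D5:**
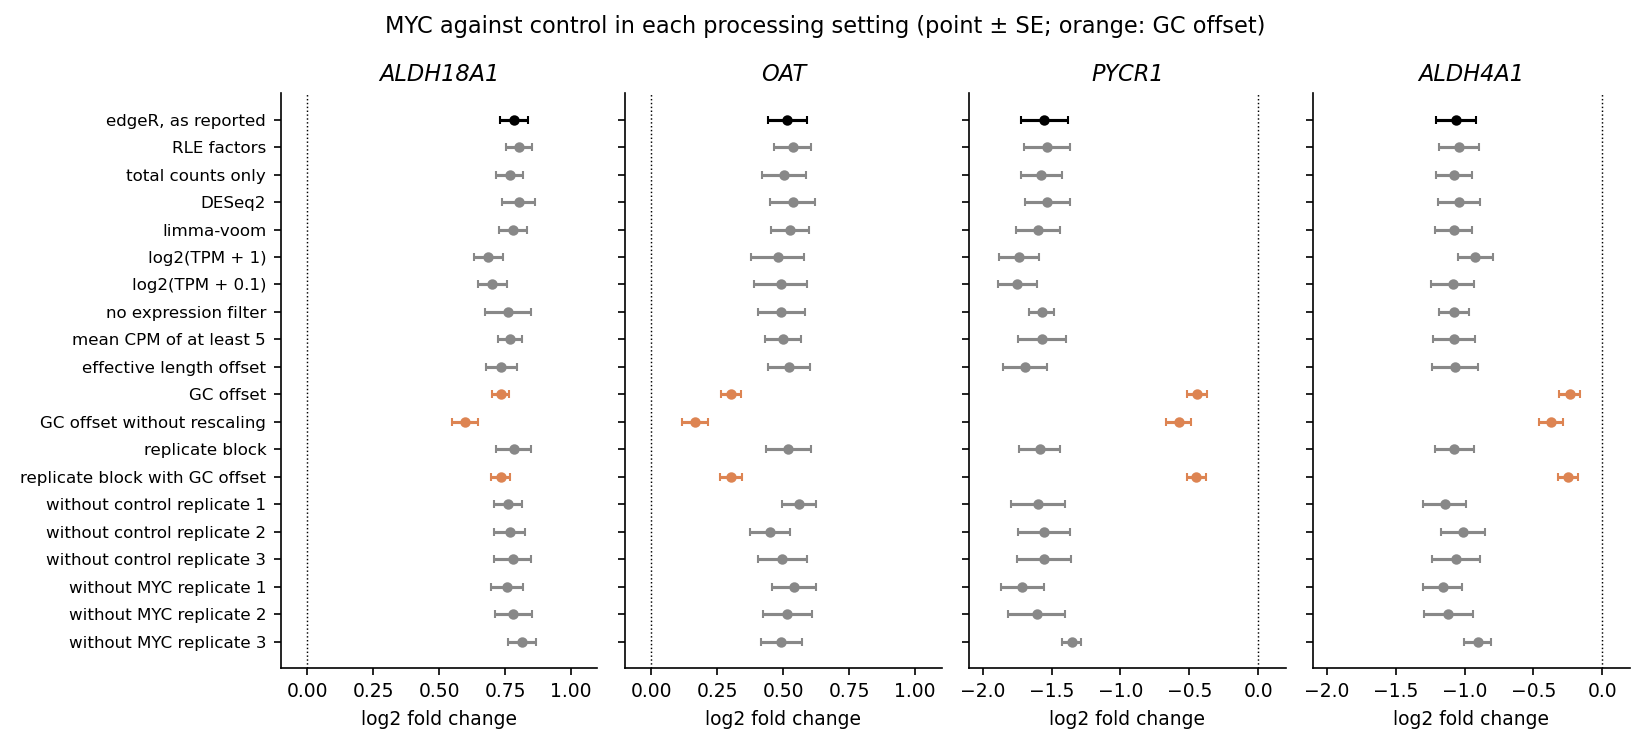
Log2 fold change of MYC against control (point ± SE) for the members above the filter under each processing setting, with the GC offset in orange and a dotted line at 0; axis ranges differ between genes. Every setting keeps ALDH18A1 and OAT above 0 and PYCR1 and ALDH4A1 under 0, and PYCR1 ranges from -1.75 to -0.44.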

How the data were processed

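Poly-A RNA of 6 samples was sequenced per the labels' protocols, after NEBNext Ultra preparation, which keeps no strand. The submitters' processing notes name cutadapt, TopHat2 and GRCh37. Their versions, and the annotation, were not stated there. What the authors deposited is, per the file headers, RSEM expected counts (estimates that share reads between similar genes), TPM (scaled for effective length and depth) and a length and effective length in bases. Symbols came from a table of gene names, which matched 51996 of 57820 identifiers and all listed symbols.

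After rounding, expected counts went into the quasi-likelihood F test of edgeR (4.0.16; R 4.3.3) with TMM factors, the group as sole term, filterByExpr at its defaults and Benjamini-Hochberg adjustment. Standard errors were derived from the F statistic. For the GC offset, log2 CPM (prior count 2) was smoothed on mean transcript GC content (GENCODE 29) in each library by loess with a span of 0.4, with TMM factors recomputed on the adjusted counts. This rescaling was chosen after the unscaled offset was seen to move the median of all genes. Alternatives used limma 3.58.1 and DESeq2 1.42.0. On simulated counts of MYC against control (17679 genes, 200 changed), recovery was 56.6% at 1.5-fold, 80.3% at 2-fold and 92.1% at 4-fold, with 7 false among 157 calls. The simulation held no GC trend and far fewer changed genes than were called in the data. Its rates therefore do not carry over to these data, least of all to GC-rich genes. Replicates within a group differed by more than sampling noise (chi-square of at least 8.74 for each degree of freedom).

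The members, the gene lists, the tests and the settings were chosen with earlier results of these data known. Named genes are MYC, the 5 members, PYCR3 and PRODH2, the 2 nearest patterns per member, and up to 4 called genes per list by smallest adjusted p, or up to 2 of the most abundant where fewer than 2 were called. Overlapping genes are named for their position. Cell type markers named singly were picked from their lists after their values were seen. Any other gene is marked in the text as named after its values. The counts over the lists include 1 gene that is not reported here. The p-values of different genes come from the same 6 libraries.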

Additional observations from a re-analysis of the deposited data

How the results depend on the processing

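Under 19 other settings ALDH18A1, OAT, PYCR1 and ALDH4A1 kept their direction and their call. These were RLE factors, total counts only, DESeq2, limma-voom, log2(TPM + 1), log2(TPM + 0.1), a fit of unfiltered genes, a minimum mean CPM of 5, effective lengths as an offset, a GC offset with and without rescaling, a replicate block with and without the GC offset, and each of 6 libraries left out. The log2 fold change ranged from 0.60 to 0.81 for ALDH18A1, 0.16 to 0.56 for OAT, -1.75 to -0.44 for PYCR1 and -1.16 to -0.24 for ALDH4A1, with adjusted p up to 0.000208, 0.0171, 0.00117 and 0.0229 in that order. The GC offset without rescaling, added after seeing the data, moved the median of all genes from -0.02 to -0.14 and the split of calls from 5085 higher and 5671 lower to 3409 and 6990. There OAT was at 0.16 and ALDH4A1 at -0.37. With a mean CPM of at least 5, 3694 genes were called lower, since fewer genes were tested. Ratios between members, taken after the GC offset as an addition after seeing the data, gave log2 shifts of 1.18 for ALDH18A1/PYCR1, 0.75 for OAT/PYCR1, 0.43 for ALDH18A1/OAT and -0.97 for ALDH4A1/ALDH18A1. PYCR3 turned to 0.0012 with the replicate block and GC offset, and SLC36A4 to -0.038 with the GC offset without rescaling. The cause was not tested. GLUL lost its call with effective lengths as an offset and on both TPM scales. Samples share only a number between groups: same-numbered deviations correlated at -0.05, 0.08 and 0.11. The replicate block gave 0.78, 0.52, -1.59 and -1.08 for ALDH18A1, OAT, PYCR1 and ALDH4A1, with 4649 genes higher and 5380 lower, and changed no call of a member. Depth limits PRODH, which is under the filter.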
